A study of Mus musculus with 4 samples.

Results

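Across the 4 RNA-seq libraries of the series, 9 genes that encode regulators of mitochondrial biogenesis were followed, namely the coactivators Ppargc1a and Ppargc1b, the nuclear receptors Esrra, Esrrb, Esrrg, Ppara and Ppard, the nuclear respiratory factor Nrf1 and the mitochondrial transcription factor Tfam. They were chosen by name, and each of the 9 names matched 1 entry among the 24850 named entries of each total RNA table and the 24992 named entries of each polyA table. All libraries came from C2C12, an immortal mouse myoblast line that fuses into myotubes after a change from growth medium with fetal bovine serum to differentiation medium (DM) with horse serum. Total RNA depleted of rRNA was sequenced from myoblasts (MB) at DM -24 h and from myotubes (MT) at DM 72 h, and polyA RNA was sequenced from cells kept in DM for 48 h after transfection with a scrambled control siRNA (si-NC) or with 1 siRNA against hnRNPL (si-hnRNPL), an RNA-binding protein known as a splicing regulator. Each condition has 1 library, so the spread between cultures is unknown and nothing was tested for significance. Values are FPKM, fragments scaled to transcript length and to the mapped fragments of the library, so that genes can be compared per length. Each comes with the 95% interval from Cufflinks, which knows only the uncertainty of counting and assigning fragments inside that library.

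Mitochondrial biogenesis depends on nuclear genes, since most mitochondrial proteins are encoded in the nucleus. The coactivators PGC-1α and PGC-1β, the products of Ppargc1a and Ppargc1b, do not bind DNA themselves and act through DNA-binding partners, among them the estrogen-related receptors (ERRs), the PPARs, NRF-1 and NRF-2. Tfam is carried into mitochondria, where it starts transcription of mitochondrial DNA and packs it. In skeletal muscle PGC-1α is known for its induction by exercise and for its high level in slow, oxidative fibres. The symbol Nrf1 stands here for nuclear respiratory factor 1 and not for the stress factor Nfe2l1, which has also been called NRF1.

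The depth implied by the intervals over all entries was 6.00e+07 fragments in MB, 5.44e+07 in MT, 2.13e+07 in si-NC and 1.46e+07 in si-hnRNPL. All 6 markers of myotubes were higher in MT than in MB, with Myog at 0.695 FPKM in MB and 251 in MT, while of 5 markers of proliferating myoblasts the cell cycle genes Mki67, Top2a and Ccnb1 were lower. The myogenic factors on that list did not pass the 1.5-fold threshold, with Myf5 at 13.8 FPKM in MB and 13.6 in MT and Pax7 at 4.85 and 7.42. Of the markers of adipocytes and brown adipocytes, Plin1, Cidec and Cidea were listed at 0 in all libraries. Adipoq, Ucp1 and Prdm16 reached at most 0.0446 FPKM. Fabp4 had 0.251 FPKM (0.0921 to 0.409) in MB, 0.0714 in MT, 0.227 in si-NC and 0 in si-hnRNPL. Lpl (15.7 FPKM) and Dio2 (29.1) were high in MT. The targeted gene Hnrnpl had 95.1 FPKM (92.7 to 97.5) after control siRNA and 85.9 (83.1 to 88.7) after the siRNA against it, which is 90.4% of the control level at the RNA. The summed FPKM from MB to MT went from 16.3 to 1740 for the myotube list, 347 to 79.6 for the proliferating myoblast list, 2.18 to 15.8 for 5 of adipocytes, 0.384 to 1.17 for 4 of osteoblasts and 0.808 to 29.1 for 4 of brown adipocytes. From si-NC to si-hnRNPL these sums went from 2782 to 4210, 168 to 119.5, 10.7 to 13.3, 0.966 to 1.06 and 0.906 to 0.932.

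The first question was which of the regulators the cells expressed. Nrf1, Esrra, Tfam and Ppard were the abundant ones, Ppargc1b was intermediate, and Ppargc1a, Ppara, Esrrb and Esrrg were near the lower end of detection. In MB the order was Nrf1 (21.3 FPKM), Esrra (16.8), Tfam (15.6), Ppard (8.03), Ppargc1b (2.00), Ppara (0.158), Esrrb (0.0597), Ppargc1a (0.0514) and Esrrg, which was listed at 0. Of these neighbours only Esrrb and Ppargc1a had overlapping intervals. In MT the order was Esrra (12.5 FPKM), Tfam (11.6), Nrf1 (9.99), Ppard (4.46), Ppargc1b (2.68), Ppargc1a (0.322), Ppara (0.288), Esrrb (0.115) and Esrrg (0.0719). The intervals of Ppargc1a and Ppara overlapped, as did those of Esrrb and Esrrg. In si-NC the order began with Ppard (14.7 FPKM), Tfam (13.8), Esrra (12.4) and Nrf1 (10.1), with overlaps between Ppard and Tfam and between Tfam and Esrra. In si-hnRNPL it was Ppard (14.4), Esrra (13.1), Tfam (12.7) and Nrf1 (10.0), where Esrra overlapped both its neighbours. Esrrb, Ppara and Esrrg stood last in both polyA libraries with at most 0.0431 FPKM, on no more than about 5.48 fragments each by their intervals.

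**Figure D1:**
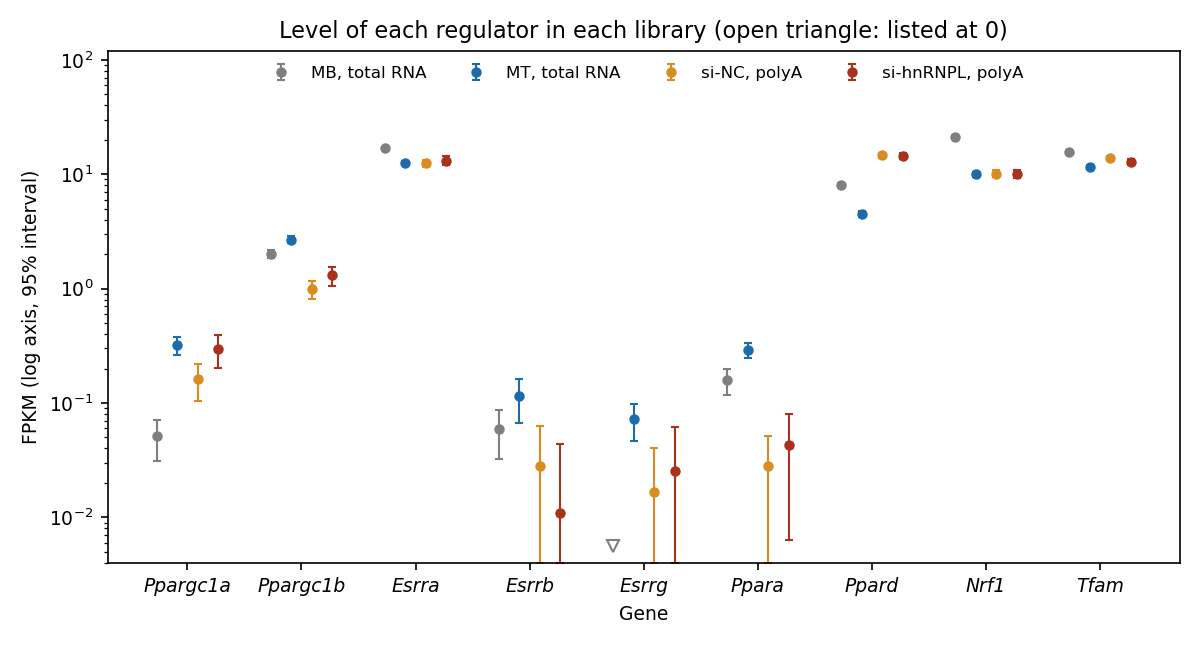
FPKM of the 9 regulators (log axis) in the 4 libraries, 1 point per library with its 95% interval; intervals that reach below the axis end at its lower edge, and the open triangle marks Esrrg, listed at 0 in MB. Esrra, Nrf1, Tfam and Ppard lie between 4.46 and 21.3 FPKM in every library, while Ppargc1a, Ppara, Esrrb and Esrrg stay at or below 0.322.

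The second question was how the regulators differed between MB and MT. Nrf1 was lower in MT. Ppard, Esrra and Tfam had lower values by an amount that depends on the scaling, and the coactivators Ppargc1a and Ppargc1b had higher values in MT. The change of a gene is the log2 ratio of FPKM + 1 between the libraries, and a gene was called higher or lower at an absolute change of 0.58, the 1.5-fold threshold of the study. By this rule 2 of the 9 regulators were lower and 0 were higher, whereas over all 24833 named entries 13.7% were lower and 7.81% higher. The median change was 0.07 for the 9 regulators, which is the value of the scarce Esrrb. It was 0.00 for all named entries, many of which are listed at 0. Among expressed genes, meaning those that reach 1 FPKM in MB and in MT, the median was -0.23 and 28.9% were lower. Both lower regulators belong to the 5 of the 9 that are expressed in this sense. Of these 5, Ppargc1b was at 0.29, Esrra and Tfam at -0.40, Ppard at -0.73 and Nrf1 at -1.02. In bulk RNA, fewer cells with a transcript and less transcript per cell cannot be told apart. For the 8 regulators above 0 in both libraries, the intervals of MB and MT did not overlap in 7, with 4 lower and 3 higher in MT. Among all entries above 0 in both libraries, 41.2% were lower and 28.4% higher by this measure, and it reads counting error within 2 libraries only.

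Ppargc1a encodes PGC-1α and lies at chr5:51845488-51945160 (mm9, minus strand). It had 0.0514 FPKM (0.0313 to 0.0716) in MB and 0.322 (0.264 to 0.379) in MT, which is 6.25 times the MB value (4.06 to 9.62 from the intervals). The MB value rests on about 26.0 fragments and the MT value on about 126. At this low level the added 1 FPKM hides most of the ratio, and the log2 change was 0.33 (0.26 to 0.40), short of the threshold. With 0.1 FPKM added instead, a choice that counts low genes more readily, it was 1.48 (1.20 to 1.75). With the dependence on transcript length and GC content across genes taken out, the change with 1 FPKM added was 0.02. That correction was estimated on genes with at least 1 FPKM in both libraries. Set against a change shrunk by the added 1 FPKM, it cannot show how much of the ratio of 6.25 goes with length or GC content. Ppargc1b, which encodes PGC-1β and lies at chr18:61457790-61560085 (minus strand), had 2.00 FPKM (1.84 to 2.17) in MB and 2.68 (2.49 to 2.86) in MT, a log2 change of 0.29 (0.18 to 0.40). In both libraries Ppargc1b was thus the more abundant of the coactivators. The Ppargc1b locus overlaps 1 annotated gene, AC116595.1, whose part in the Ppargc1b value was not tested. The polyA tables place the Ppargc1a locus at chr5:51845488-51958964, so they used a longer gene model than the total RNA tables.

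Esrra encodes ERRα, the estrogen-related receptor through which PGC-1α acts on many genes of oxidative phosphorylation. It lies at chr19:6985467-6996298 (minus strand). Its level was 16.8 FPKM (16.2 to 17.4) in MB and 12.5 (11.95 to 13.001) in MT, a log2 change of -0.40 (-0.48 to -0.32). The intervals did not overlap, but the change did not reach the threshold. Its locus overlaps that of Trmt112 at one end, a gene with 66.5 FPKM in MB and 44.4 in MT, so fragments at that end could be assigned to either gene. Esrrb, known for its role in pluripotent cells, had 0.0597 FPKM (0.0324 to 0.0871) in MB and 0.115 (0.0674 to 0.163) in MT with overlapping intervals. Esrrg encodes ERRγ, which is known in oxidative muscle and heart. It was listed at 0 in MB and at 0.0719 FPKM (0.0461 to 0.0976) in MT, about 31.1 fragments.

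Ppard encodes PPARδ, the PPAR best known from skeletal muscle, and lies at chr17:28369699-28438414 (plus strand). It fell from 8.03 FPKM (7.68 to 8.39) in MB to 4.46 (4.20 to 4.72) in MT, a log2 change of -0.73 (-0.81 to -0.64). Once the median of expressed genes is subtracted its change is -0.50, which is no longer past the threshold. Ppara, which encodes the PPAR best known from liver, had 0.158 FPKM (0.117 to 0.198) in MB and 0.288 (0.245 to 0.331) in MT. The ratio of 1.83 (1.36 to 2.46) corresponds to a log2 change of 0.15 with the pseudocount of 1. Ppard and Ppara therefore differed in opposite directions, with the more abundant gene lower and the scarce one higher in MT.

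Nrf1 lies at chr6:29997988-30103458 (plus strand) and encodes an activator of nuclear genes for respiratory chain subunits. It had the largest fall of the 9 regulators, from 21.3 FPKM (20.5 to 22.0) in MB to 9.99 (9.47 to 10.5) in MT, which is 47.0% of the MB level. The log2 change was -1.02 (-1.10 to -0.94), and 12.5% of expressed genes had a lower value. Relative to the median of expressed genes it was -0.79, still past the threshold. The Nrf1 locus overlaps 1 annotated gene named 7SK, and whether fragments of 7SK enter the Nrf1 value was not tested. Tfam lies at chr10:70688225-70700792 (minus strand). Its level was 15.6 FPKM (15.1 to 16.0) in MB and 11.6 (11.2 to 11.9) in MT, a log2 change of -0.40 (-0.46 to -0.34). Tfam and Esrra were thus at nearly the same share of their MB level, 74.1% and 74.3%, and relative to the median of expressed genes their changes were -0.18 and -0.17. With both libraries scaled to the same protein-coding total, little of the difference was left, at -0.04 for Tfam and -0.04 for Esrra.

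The promoters of Esrra, Tfam and Ppara are shown because they were the regulators with a match to a site of a nuclear respiratory factor. RefSeq promoters (GRCm38.p6, 250 bases before to 50 after a start, in the direction of the gene) were searched on both strands for 4 motifs: GCGCANGCG for NRF-1, CCGGAAG for GABP, the ETS factor also called NRF-2, TNAAGGTCA for the ERRs and TGACGTCA for CREB. Of 32851 promoters on chromosomes other than 18, 6.25% held the first, 8.86% the second, 1.28% the third and 1.79% the fourth. Among 13 promoters of 8 regulators the Esrra promoter (chr19:6921759-6922058, minus strand) held an NRF-1 match, GCGCACGCG, from base -141. The Ppara promoter (chr15:85735526-85735825, plus strand) held NRF-1 matches on both strands that overlap in 1 palindrome from base -31. The Tfam promoter (chr10:71237995-71238294, minus strand) held a GABP match from base -47. No full match to the ERR or CREB motif was found in these windows for any of the 8. Only full matches were counted, so partial or variant sites are not covered. Matches are in capitals, and they describe letters, not bound sites.
Esrra: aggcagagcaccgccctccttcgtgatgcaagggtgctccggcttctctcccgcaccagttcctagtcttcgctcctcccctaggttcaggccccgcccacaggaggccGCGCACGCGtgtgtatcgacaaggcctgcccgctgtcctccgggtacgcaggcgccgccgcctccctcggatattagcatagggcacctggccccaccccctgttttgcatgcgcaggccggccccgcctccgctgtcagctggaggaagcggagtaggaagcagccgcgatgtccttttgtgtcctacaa
Tfam: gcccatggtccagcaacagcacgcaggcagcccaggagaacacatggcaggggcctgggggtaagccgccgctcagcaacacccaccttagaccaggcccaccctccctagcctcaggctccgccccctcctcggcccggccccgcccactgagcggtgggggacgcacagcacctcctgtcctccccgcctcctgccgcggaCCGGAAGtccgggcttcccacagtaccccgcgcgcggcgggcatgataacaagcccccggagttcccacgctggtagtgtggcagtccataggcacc
Ppara: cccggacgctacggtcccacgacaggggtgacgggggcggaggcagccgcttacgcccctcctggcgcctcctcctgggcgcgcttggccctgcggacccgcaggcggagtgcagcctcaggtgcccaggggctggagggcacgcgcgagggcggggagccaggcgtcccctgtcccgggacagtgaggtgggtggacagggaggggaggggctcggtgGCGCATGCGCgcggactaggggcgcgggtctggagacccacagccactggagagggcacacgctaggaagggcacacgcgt

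**Figure D2:**
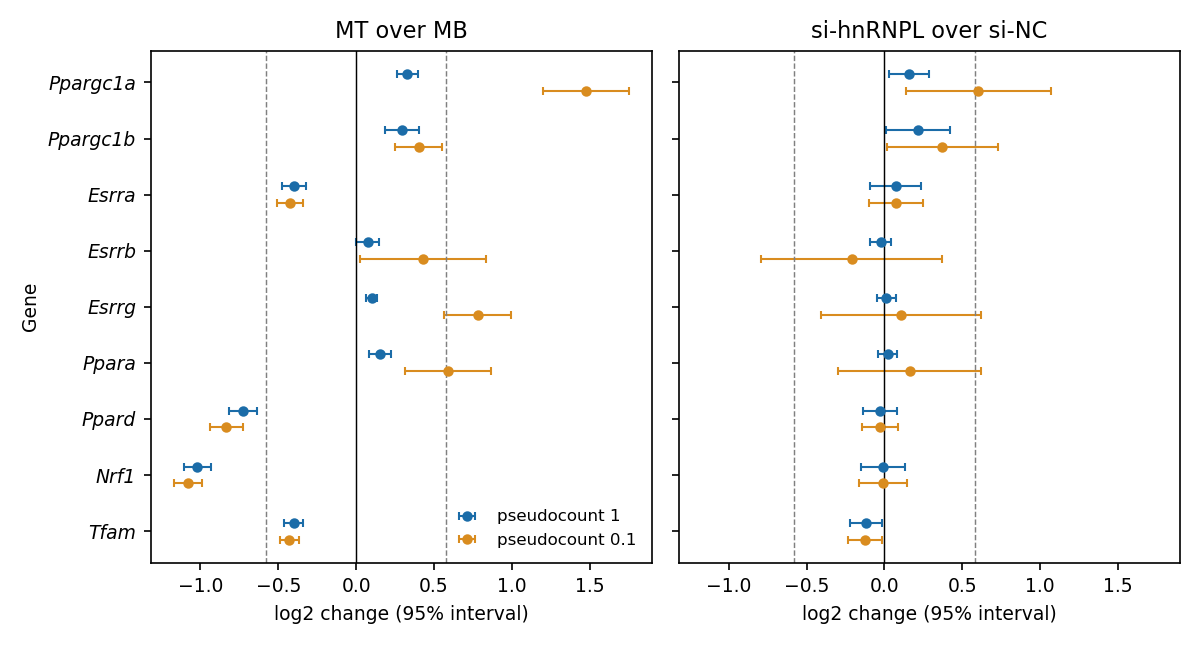
Change of the 9 regulators for MT over MB (left) and si-hnRNPL over si-NC (right), as log2((FPKM + pseudocount) ratio) with its 95% interval from both libraries; dashed lines mark the threshold of 0.58. On the left Nrf1 and Ppard lie below -0.58 with either pseudocount, and Ppargc1a moves from 0.33 to 1.48 when the pseudocount is 0.1; on the right every value with a pseudocount of 1 lies within 0.22 of 0.

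The pseudocount mattered for the scarce regulators. With 0.1 in place of 1, Ppargc1a (1.48), Esrrg (0.78) and Ppara (0.59) passed the threshold as higher in MT, beside the same 2 lower genes. Over all named entries 13.7% were then higher and 17.2% lower. The value of Esrrg rests on an MB entry at 0 and gives no fold change.

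The total RNA tables also list transcript units that the authors assembled from the reads, some of them within loci of the regulators. Ppargc1b held 30 such units, Ppard 6 and Esrra and Esrrb 1 each, whereas Ppargc1a, Esrrg, Ppara, Nrf1 and Tfam held 0. Only 1 of the 30 units overlapped an annotated exon of Ppargc1b, and 0 of the 6 an exon of Ppard, so nearly all lay in introns. In the Ppargc1b locus 29 of 30 units had a higher FPKM in MT, with a median of 0.349 FPKM in MB (0.233 to 0.818 over the units) and 0.687 in MT (0.473 to 1.68). The median ratio of these units was 1.93, against 1.34 for Ppargc1b itself. In the Ppard locus 5 of 6 units were higher in MT, with a median ratio of 1.89, while Ppard itself was at 0.556 of its MB level. The intervals of MB and MT did not overlap for 11 of the 30 units and 2 of the 6, all higher in MT. The 1 unit in the Esrrb locus went the other way, from 0.176 FPKM (0.0698 to 0.282) in MB to 0 in MT. The unit in the Esrra locus had overlapping intervals. Of 34078 assembled units above 0 in both libraries, 38.5% were higher and 6.36% lower by this measure, so the share in the Ppargc1b locus is near the background. Across the genome 79.3% of all 36780 units had a higher FPKM in MT and their median ratio was 2.08. Units within 1 locus share their source and are not replicates. The microRNA gene Mir378a, which lies within Ppargc1b, was listed at 0 in all 4 libraries. Its entry is very short (chr18:61557489-61557554), and whether these libraries could capture it was not tested, so the 0 does not show absence of the microRNA.

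**Figure D3:**
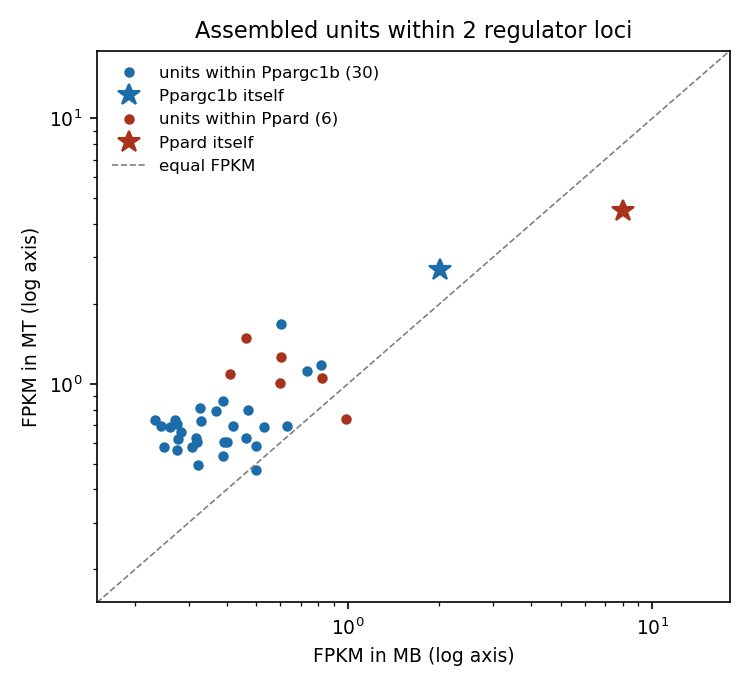
FPKM in MB against FPKM in MT (both log axes) for the assembled units within Ppargc1b (30) and Ppard (6), with a star for each gene itself and a dashed line at equal FPKM. Units of both loci lie mostly above the line, while the star of Ppard lies below it.

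Genes around the regulators in the same pathway were then compared between MB and MT, on lists chosen by name. Of 92 genes measured, 13 were higher in MT and 20 lower. Among named entries that reach 1 FPKM in either library 15.4% were higher and 28.6% lower, and these shares are the background for the count over all lists and for that of each list. After centring on the median of expressed genes the numbers were 20 and 12, and after scaling both libraries to the same protein-coding total 23 and 9, so the balance of directions depends on the scaling. Among 28 relatives, partners and modulators of PGC-1 there were 5 higher and 7 lower, with a median log2 change of -0.07. The largest rise was that of Prkag3, the γ3 subunit of the energy sensor AMPK that is typical of fast muscle, from 0.313 FPKM (0.238 to 0.388) to 9.72 (9.31 to 10.1). Ncoa1 (1.06) and Kat2b (0.88), a coactivator and an acetyltransferase, and Fnip1 (0.85), a partner of folliculin, also rose on the log2 scale. The largest falls were those of Mybbp1a (-1.53), known as a repressor of PGC-1α, of the acetyltransferase Kat2a (-1.39), which acetylates PGC-1α, of Pprc1 (-1.12), the third member of the PGC-1 family, and of the AMPK subunit Prkag2 (-0.93). Pprc1 went from 10.8 FPKM to 4.43, and was the most abundant PGC-1 family gene in both libraries.

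Of 6 nuclear respiratory factors and related genes, 3 were lower and 0 higher, with a median log2 change of -0.53, against -0.23 for expressed genes. This is a count over few genes, to be read beside the background of 28.6% lower. The 3 were the GABP subunits Gabpb1 (-0.69) and Gabpb2 (-0.76) and the coregulator Hcfc1 (-0.94), while the DNA-binding subunit Gabpa had 21.2 FPKM in MB and 21.0 in MT. Of 8 nuclear receptor partners, Thra, the thyroid hormone receptor of muscle, rose (0.99) and Pparg, the PPAR known for adipocytes, fell (-1.68). Pparg had 14.8 FPKM (14.0 to 15.6) in MB and 3.94 (3.51 to 4.38) in MT.

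Of 24 genes for transcription, replication and maintenance of mitochondrial DNA, 3 were higher and 5 lower, with a median of -0.14. Rises were seen for the pyrimidine carrier Slc25a36 (1.05), the ribonucleotide reductase subunit Rrm2b (0.76) and Mterf2 (0.71). Atad3a (-1.10), the polymerase Polg (-0.93), the topoisomerase Top1mt (-0.82) and the carrier Slc25a33 (-0.75) fell the most. The mitochondrial RNA polymerase Polrmt had 11.6 FPKM in MB and 7.82 in MT, and Tfb2m had 14.8 in each. The genes that mitochondrial DNA itself encodes were not analysed here.

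Of 13 genes known as targets of ERRs or PGC-1 in muscle, 1 was higher and 3 lower, with a median of -0.21. Fndc5, which encodes the precursor of irisin, rose from 0.778 FPKM to 12.2 (log2 change 2.89), while Idh3a (-1.09), Cycs (-0.81) and Cs (-0.72), enzymes of the citric acid cycle and cytochrome c, fell. Of 13 genes known as PPAR targets 3 were higher and 1 lower, with a median of 0.07. That median is the value of the scarce Ucp3, at 0.0158 FPKM in MB and 0.0654 in MT, where the added 1 FPKM keeps a change small. The fatty acid binding protein Fabp3 (2.35), the uncoupling protein Ucp2 (1.77) and the fatty acid transporter Cd36 (1.57) rose, and Pdk4 (-0.77), which restrains glucose oxidation, fell. Within either list of targets the genes therefore did not move in 1 direction.

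**Figure D4:**
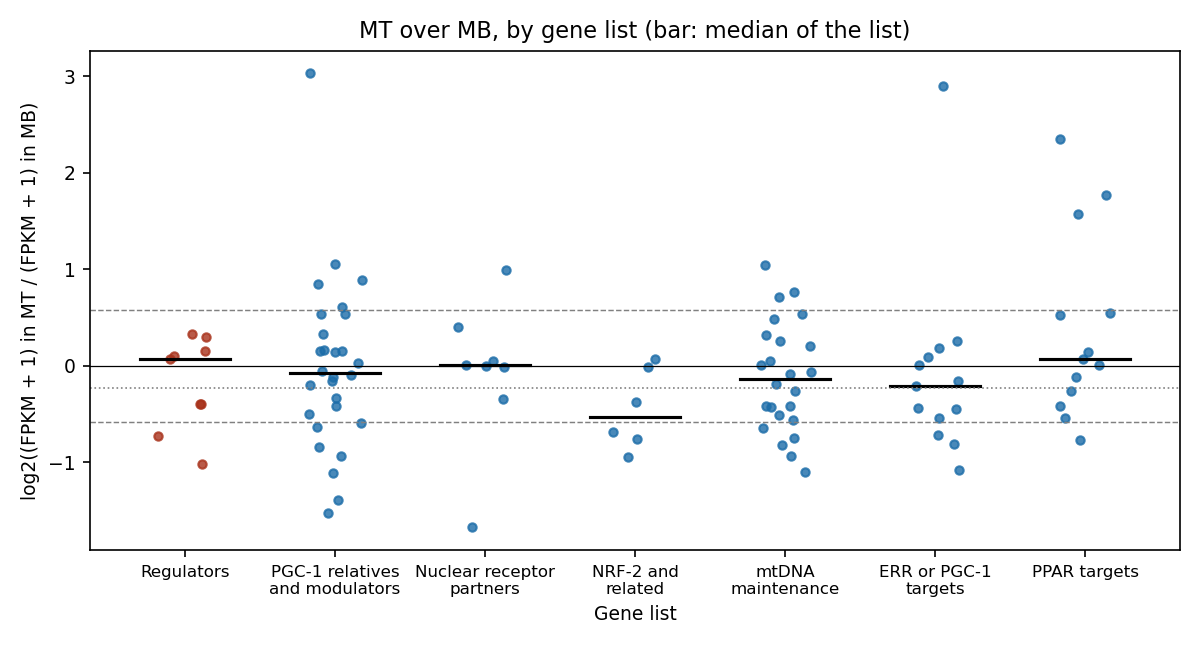
log2((FPKM + 1) ratio) of MT over MB for the 9 regulators and 6 lists of related genes, 1 point per gene; bars mark list medians, dashed lines the threshold of 0.58 and the dotted line the median of -0.23 of expressed genes. Every list has genes on both sides of 0, with medians from -0.53 to 0.07. The median of 0.07 is the value of a scarce gene, Esrrb for the regulators and Ucp3 for the PPAR targets.

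The third question was whether the regulators differed between cells given the siRNA against hnRNPL and control cells. None of the 9 passed the threshold in polyA RNA of si-hnRNPL against si-NC (0 higher, 0 lower), and the largest absolute log2 change was 0.22. Hnrnpl RNA itself was at 90.4% of its control level, and the libraries hold no protein values. The comparison is thus one of siRNA labels, with the loss of hnRNPL in the sequenced cells not known from these libraries. The paper reports knockdown of hnRNPL by its siRNAs, examined by Western blot in cells kept in DM after transfection. Whether the sequenced cells were among those on the blot is not stated. Over all 24991 named entries 0.688% were higher and 0.416% lower. Among those with at least 1 FPKM in both libraries 1.14% were higher and 0.758% lower, so few genes passed the threshold in this comparison. The intervals of the libraries overlapped for all 9, whereas 10.8% of entries above 0 in both libraries were higher and 15% lower without overlap. The median change was 0.01 for the 9 regulators, which is the value of Esrrg at 0.0165 and 0.0255 FPKM. It was 0.00 for all named entries and -0.01 for expressed genes, here those with at least 1 FPKM in both polyA libraries.

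The 4 abundant regulators had close values in both libraries. With control siRNA Nrf1 had 10.1 FPKM (9.43 to 10.8), and with the siRNA against hnRNPL 10.0 (9.22 to 10.9), a log2 change of -0.01 (-0.15 to 0.13). Ppard had 14.7 (13.9 to 15.4) and 14.4 (13.5 to 15.3), and Esrra 12.4 (11.5 to 13.4) and 13.1 (11.9 to 14.3). The change was -0.03 (-0.14 to 0.08) for Ppard and 0.07 (-0.09 to 0.23) for Esrra, so for these 3 genes its interval included 0. Tfam had 13.8 FPKM (13.2 to 14.5) in the control against 12.7 (11.9 to 13.5) with the hnRNPL siRNA, a log2 change of -0.12 (-0.22 to -0.01). On the log2 scale the coactivators had the largest changes of the 9, at 0.16 for Ppargc1a and 0.22 for Ppargc1b. Ppargc1a had 0.161 FPKM (0.105 to 0.217) in the control against 0.297 (0.201 to 0.392) with the hnRNPL siRNA, 1.84 times the control (1.15 to 2.96) on 33.0 and 38.6 fragments. Ppargc1b had 0.982 (0.803 to 1.16) and 1.30 (1.04 to 1.56), 1.32 times the control (1.01 to 1.73). With a pseudocount of 0.1 Ppargc1a reached 0.60 and was the only regulator past the threshold, while 3.32% of all named entries were higher and 2.56% lower. Esrrb, Esrrg and Ppara rested on too few fragments for a difference to be detectable at this depth.

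All 6 myotube markers also had higher values in si-hnRNPL, with Myog at 175 FPKM in the control against 249 and Acta1, Ckm and Mylpf past the threshold, and all 5 markers of proliferating myoblasts had lower values, with Mki67 at 24.3 and 15.5. The part of this difference between the cultures in the values of the coactivators was not tested. Across 9858 of the 19017 protein-coding genes the log2 change also ran with transcript length (Spearman rho -0.45) and GC content (0.43). With both taken out Ppargc1a was at 0.35, Ppargc1b at 0.19 and Tfam at -0.01. The correction was estimated on genes with at least 1 FPKM in both libraries, which Tfam reached and the coactivators did not. Of the 92 related genes 1 was higher and 0 lower, where 1.44% of named entries that reach 1 FPKM in either library were higher and 0.888% lower. This gene was Fabp3, with 4.86 FPKM (3.61 to 6.11) in the control against 8.34 (6.30 to 10.4) with the hnRNPL siRNA. The largest changes in the other lists were those of Flcn (0.44), Tk2 (0.39), Pparg (0.30), Cox4i1 (0.30) and Gabpa (-0.20).

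The polyA and total RNA libraries differ in kind and in time of differentiation, so their levels stand side by side without a comparison. Nrf1, Esrra and Tfam had 9.99, 12.5 and 11.6 FPKM in MT total RNA and 10.1, 12.4 and 13.8 in si-NC. Ppard had 4.46 and 14.7, Ppargc1b 2.68 and 0.982, and Ppargc1a 0.322 and 0.161.

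The genes with the pair of changes nearest to that of a regulator, among those with at least 1 FPKM in all 4 libraries, were Tmem218, Ech1 and Sphk1 for Ppargc1a and Smo, Mettl16 and Sfxn2 for Nrf1. Ppargc1a was taken for its largest positive log2 change with a pseudocount of 1, a rank that passes to Ppargc1b after rescaling (0.58 against 0.43) and with length and GC content taken out (0.45 against 0.02). Its change of 0.33 stands for a ratio of 6.25 at a low level, so the likeness to more abundant genes is one of log2 values and not of ratios. Distances on the log2 scale ran from 0.0029 to 0.018. Such likeness is common in 2 changes from 4 libraries, since 169 of 10089 genes lay within 0.1 of Ppargc1a and 141 of 10088 within 0.1 of Nrf1.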

How the data were processed

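Total RNA of MB and MT was depleted of rRNA and sequenced from strand-specific libraries, and polyA RNA of si-NC and si-hnRNPL cells was sequenced after poly(A) selection, with 1 library per condition. The authors trimmed the reads, dropped reads under 36 bp, used TopHat 2.0.13 for alignment against mm9 and deposited the FPKM that Cufflinks 2.1.1 estimated, each with its 95% interval. Whether counting used strand, and which gene annotation was used, is not given in the sources used here. Starts of loci in the tables count from 0 and were raised by 1.

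Entries with a failed estimate in either library were left out. A fragment number was read from each interval as (2 x FPKM / half-width) squared. Intervals of a log2 change come from both libraries' half-widths added in quadrature. Transcript length and GC content were those of the longest protein-coding GENCODE transcript of mm9 and were taken out in 20 bins each over 3 rounds. The bin medians came from genes with at least 1 FPKM in both libraries and were subtracted from the log2 change of every gene. Older symbols were matched through RefSeq names, which gave Peo1 for Twnk. The text names the 9 regulators, in each list of related genes at most the 4 largest rises and 4 largest falls past 0.58 with 1 FPKM or more in a library (or the largest change), and for likeness the 3 nearest genes; Gabpa, Polrmt and Tfb2m at MT over MB, Hnrnpl, Trmt112 and Mir378a were added after their values were seen. The regulators and lists were chosen with earlier results of these data known.

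Calculations used numpy 2.4.6, scipy 1.17.1 and pandas 2.3.3 in Python 3.11.15, with figures from matplotlib 3.10.9, and were tested on simulated data. Alternatives were other pseudocounts, a higher threshold, centring, rescaling, summing entries of 1 symbol, requiring an interval without 0, and taking out length and GC content.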

Additional observations from a re-analysis of the deposited data

How the results depend on the processing

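No paired analysis was possible because each condition has 1 library, and no library could be left out. For MT over MB the number of regulators past the threshold was 2, and it became 5 with a pseudocount of 0.1, 6 with 0.01, 1 at an absolute log2 change of at least 1 and 1 after centring on the median of expressed genes; centring is what lowers the change of Ppard to -0.50. After rescaling to the same protein-coding total it stayed 2, with Nrf1 lower (-0.66) and Ppargc1b higher (0.58), while Ppard was at -0.40, Esrra at -0.04 and Tfam at -0.04. For si-hnRNPL over si-NC the number was 0, and it became 1 with a pseudocount of 0.1 and 2 with 0.01. The related genes past the threshold numbered 33 for MT over MB and 13 at an absolute log2 change of at least 1. For si-hnRNPL over si-NC they numbered 1, and 3 with a pseudocount of 0.1, 4 with 0.01, 0 at the higher threshold, 2 after rescaling and 0 with length and GC content taken out. Taking out length and GC content moved the change of Esrrg for MT over MB from 0.10 to -0.15 and that of Ppargc1a to 0.02. Both genes are under 1 FPKM, while the correction was estimated on genes that reach it. Esrrg is listed at 0 in MB and cannot be lower in MT, so these moves give no direction. Beyond the arithmetic of the pseudocount and the threshold, the cause of these moves was not tested. Genes under about 0.1 FPKM rest on few fragments, and 1 library per condition leaves the spread between cultures unknown.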
